A study of Mus musculus with 8 samples.

Results

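Glycolysis, the pentose phosphate pathway and serine synthesis share glucose-derived intermediates, and 42 mouse genes of these routes were followed here in pre-BII cells. The genes were listed by function: glucose transporters and hexokinases, the enzymes of upper and lower glycolysis, lactate and pyruvate enzymes with their transporters, the oxidative and non-oxidative pentose phosphate steps, serine and one-carbon enzymes, and Hif1a. Of the 42, 37 had a probe set of their own, among 12393 named genes on the array. Hk3, Gpi1, Gapdh, Eno1 and G6pdx were not analysed here, because no probe set was assigned to them alone, so that the first committed pentose phosphate step and the most widely expressed enolase are missing from what follows.

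The arrays came from mice lacking the B-cell transcription factor Aiolos (Aiolos-/-), mice lacking the coactivator OBF-1 (OBF-1-/-), mice lacking both, and wild-type mice. The labels give a Bl6 background and an age of 7 weeks for every genotype, and bone marrow as the source. By the methods, B220+ CD25+ pre-BII cells were sorted, and each of the 2 arrays per genotype carried RNA from a separate pool of 8 mice. The mutations were carried in all cells of the animals, not in B cells alone, and the CD25+ gate holds large cycling and small resting pre-BII cells together. With sorted bulk RNA, fewer cells of a type and less RNA per cell cannot be told apart.

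Glycolysis splits glucose to pyruvate and yields ATP and NADH. Lactate dehydrogenase regenerates NAD+ by turning pyruvate into lactate, which leaves the cell through monocarboxylate transporters. The pentose phosphate pathway branches off glucose-6-phosphate and provides NADPH and ribose for nucleotides, while serine is made from 3-phosphoglycerate and feeds one-carbon units into purine and thymidylate synthesis. In B-cell precursors these routes are used most during the proliferative burst driven by the pre-B-cell receptor and interleukin 7, and the transcription factors Pax5 and Ikaros, with Ikaros a relative of Aiolos, are known to restrain glucose use in pre-B cells.

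Median intensities lay between 66.8 and 69.4 units over the 8 arrays, and arrays of one genotype correlated at 0.9961 to 0.9965, against 0.9878 to 0.9946 between genotypes. Pou2af1, the gene of OBF-1, read 170.1 to 273 units on the 4 arrays of the OBF-1-/- genotypes and 2434 to 2842 units on the other 4, as the labels require. The gene of Aiolos was not analysed here. The Aiolos and double-mutant arrays were run on fluidics station 1, the OBF-1 and wild-type arrays on station 2. Station and genotype therefore cannot be told apart in the comparisons of Aiolos mutants with wild type, of double mutants with wild type and of double with OBF-1 mutants, whereas OBF-1 mutants and wild type, and double and Aiolos mutants, were compared within a station.

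In double-mutant cells 5 of the 37 genes rose and 5 fell against wild type (limma, adjusted p under 0.05 over 22626 probe sets). Slc16a1, which encodes a lactate transporter, Ldhb, Hk1, Pfkm and the gluconeogenic phosphatase gene Fbp1 were higher. Aldoa, Ldha and the one-carbon enzymes Shmt1, Shmt2 and Mthfd2 were lower. Changes were modest, from 1.01 to -0.59 on the log2 scale. Each direction held 13.5% of the measured members, against 4.9% of all named genes higher and 4.13% lower. Among genes reaching a mean of 100 units in some genotype, where 32 members fell, the members' share was 15.6% in each direction, against 7.7% of genes higher and 7.14% lower. A gene can reach this level only through a mutant in which it is high. Fbp1 and Pfkm did so, with wild-type means of 64.9 and 96.5 units, so the share higher is partly selected by the change itself.

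The single mutants showed fewer differences from wild type. Only Shmt2 fell in Aiolos mutants (1 of 37, background 0.767%) and none rose (background 1.02%), with 4 members higher and 5 lower at an unadjusted p under 0.05. Only Eno3 rose in OBF-1 mutants (1 of 37, background 1.15%) and none fell (background 1.12%), with 6 higher and 4 lower at an unadjusted p under 0.05. The background shares are for adjusted p. None was computed at the unadjusted threshold, so the unadjusted counts show neither an excess nor a lack. The median log2 change of the members was 0.01 in Aiolos, 0.03 in OBF-1 and 0.04 in double mutants, beside 0.04, 0.03 and 0.01 over all named genes. The list did not shift as a block. Regardless of sign, the median size of change in double mutants was 0.19 for the members and 0.11 over all genes. These sizes were not matched for intensity: 32 of the 37 members but 6243 of 12393 named genes reached a mean of 100 units in some genotype. All 3 comparisons used the same wild-type arrays.

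**Figure D1:**
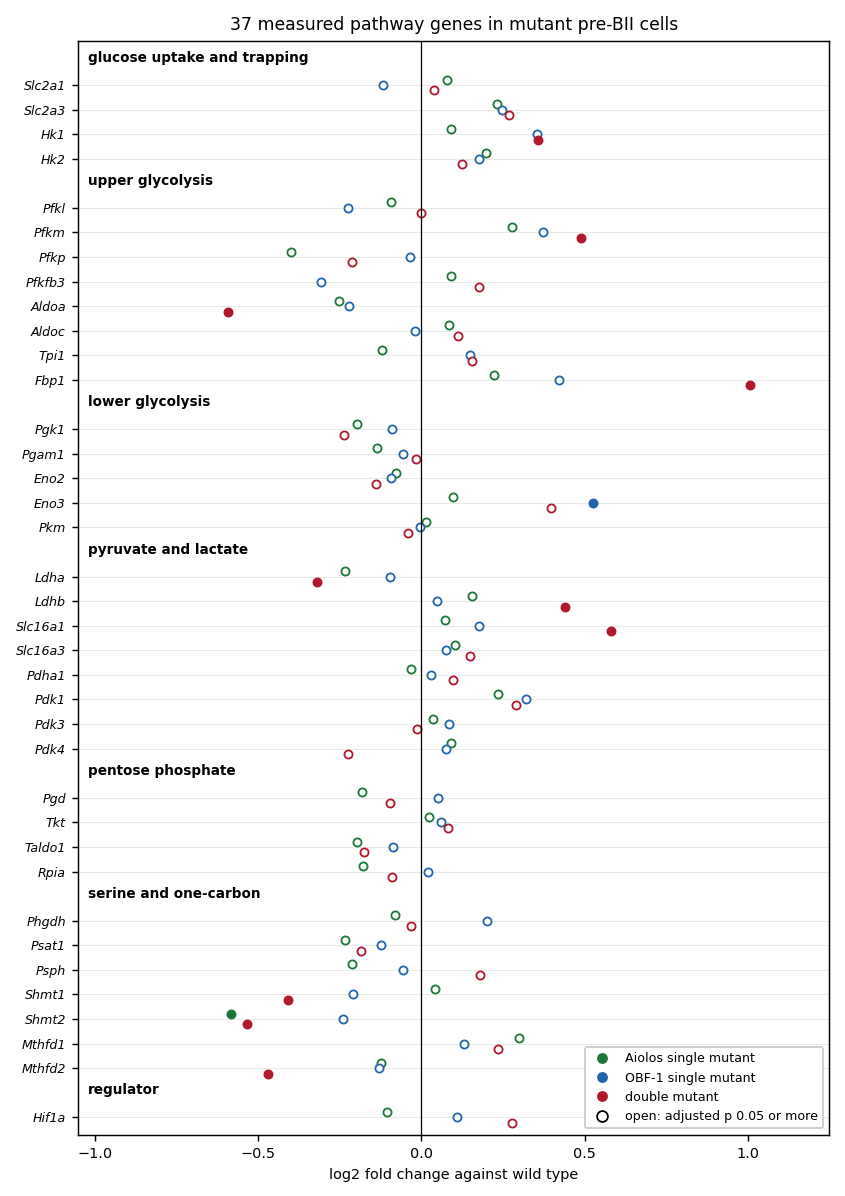
Log2 fold change against wild type (x axis) of the 37 measured genes, grouped by step, in Aiolos (green), OBF-1 (blue) and double mutants (red). Filled points had an adjusted p under 0.05; the double mutant has 10 of them, from Aldoa at -0.59 to Fbp1 at 1.01.

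Glucose enters B-lineage cells through the transporters Slc2a1 (GLUT1) and Slc2a3 (GLUT3) and is trapped by hexokinases. Only the hexokinase gene Hk1 passed among these 4 measured genes, higher in double mutants, where 4.9% of all named genes were. Hk1 read 246 and 238 units in Aiolos mutants, 275 and 307 in OBF-1 mutants, 301 and 282 in double mutants, and 227 and 228 in wild type. All mutant arrays lay above both wild-type arrays, the Aiolos mutants by the least (0.09, adjusted p = 0.63). For double mutants alone, 27.2% of all named genes were higher without overlap, and the share higher in every mutant was not computed. The change was 0.36 ± 0.09 in double mutants (log2, SE, adjusted p = 0.036) and 0.35 in OBF-1 mutants (adjusted p = 0.093), and the double mutants stood at 0.00 against OBF-1 mutants, with a 95% interval of -0.20 to 0.21. The Hk1 call was lost on leaving out any wild-type, Aiolos or double-mutant array (adjusted p 0.055 to 0.187). A dimmer Hk1 probe set gave 0.51 in double mutants (adjusted p = 0.058).

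Slc2a1, Slc2a3 and Hk2 did not pass in any comparison. Slc2a1 read 89.7 to 110.5 units over all 8 arrays, each mutant overlapping wild type. Slc2a3 read 320.2 to 389 units on the 6 mutant arrays and 304 and 291 in wild type, a difference of 0.27 in double mutants (adjusted p = 0.17). Hk2, the inducible hexokinase, read 132 to 146 units in the mutants and 127 and 125 in wild type. For both genes every mutant array exceeded both wild-type arrays, yet by less than the test required. For double mutants alone, 27.2% of all named genes were higher without overlap. The share that was higher in every mutant was not computed.

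In upper glycolysis 2 of 8 measured genes rose and 1 fell in double mutants, beside 4.9% higher and 4.13% lower among all named genes. Aldoa encodes the aldolase that cleaves fructose-1,6-bisphosphate. Its values were 1290.3 and 1329.5 units in Aiolos mutants, 1313 and 1363 in OBF-1 mutants, 1029.8 and 1041 in double mutants, and 1524 and 1596 in wild type. Double-mutant cells were lowest, wild-type cells highest, and both single mutants lay between with no overlap to either. The decrease was -0.59 ± 0.09 in double mutants (log2, SE, adjusted p = 0.0013), against -0.25 in Aiolos mutants (adjusted p = 0.16) and -0.22 in OBF-1 mutants (adjusted p = 0.29).

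Aldoa was also lower in double than in OBF-1 mutants, by -0.37 (adjusted p = 0.048), a call that was lost without any one of the 8 arrays (adjusted p 0.067 to 0.233). Against Aiolos mutants the difference was -0.34 (adjusted p = 0.067). The decrease against wild type held with each array left out, and all 4 Aldoa probe sets fell in double mutants, by -0.43 to -0.71. One of the dimmer probe sets also passed in Aiolos mutants (-0.41, adjusted p = 0.047). All 4 are of the x type, which can bind related transcripts. Aldoc, the brain aldolase, stayed between 25.4 and 29.8 units.

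Phosphofructokinase, the rate-controlling step, has 3 subunit genes, of which only the muscle type Pfkm passed. Pfkm read 117 and 117 units in Aiolos mutants, 118 and 132 in OBF-1 mutants, 139 and 132 in double mutants, and 99.5 and 93.5 in wild type. All mutant arrays were above both wild-type arrays, the double mutants at 0.49 ± 0.09 (adjusted p = 0.0074), Aiolos mutants at 0.28 (adjusted p = 0.15) and OBF-1 mutants at 0.37 (adjusted p = 0.079). Without wild-type replicate 2 or double-mutant replicate 1 the adjusted p of Pfkm was 0.068 and 0.059. The liver type Pfkl and the platelet type Pfkp changed by 0.00 and -0.21 in double mutants and did not pass; Pfkp read 160.1 and 149 units in Aiolos mutants, the lowest of all genotypes, against 217 and 192 in wild type (-0.40, adjusted p = 0.094).

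Pfkfb3 makes fructose-2,6-bisphosphate, the activator of phosphofructokinase. It read 304 and 289 units in Aiolos mutants, 218 and 233 in OBF-1 mutants, 309 and 320.2 in double mutants, and 299 and 259 in wild type. OBF-1 mutants were lowest with no overlap, and the other genotypes were close together. Pfkfb3 was higher in double than in OBF-1 mutants, by 0.48 ± 0.10 (log2, SE, adjusted p = 0.024), but not in double mutants against wild type (0.18, adjusted p = 0.34). That call was lost without any one array of the 2 genotypes (adjusted p 0.089 to 0.129), and a probe set near background gave -0.25 (adjusted p = 0.28).

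Fbp1, fructose-1,6-bisphosphatase, runs the phosphofructokinase step in reverse. It read 76.1 and 75 units in Aiolos mutants, 81 and 92.9 in OBF-1 mutants, 108 and 156 in double mutants, and 61 and 68.7 in wild type. Double mutants were highest with no overlap, although their arrays lay far apart, and the signal was low throughout. Expression of Fbp1 was 2.01-fold that of wild type (log2 1.01 ± 0.15, adjusted p = 0.0012) and 1.72-fold that of Aiolos mutants (log2 0.78, adjusted p = 0.013). The excess over OBF-1 mutants was 0.58 (adjusted p = 0.065). With ordinary instead of moderated variances Fbp1 passed neither against wild type (adjusted p = 0.13) nor against Aiolos mutants (adjusted p = 0.29). The change against wild type held with each array left out, whereas that against Aiolos mutants was lost without either Aiolos array or double-mutant replicate 2 (adjusted p 0.068 to 0.096).

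Tpi1, triosephosphate isomerase, did not pass by its brightest probe set (0.16 in double mutants, adjusted p = 0.36), though a second of its 3 probe sets did (0.37, adjusted p = 0.028), and the third passed in double against Aiolos mutants (0.53, adjusted p = 0.040). In lower glycolysis none of the 5 measured genes passed in double mutants, and their changes ran from -0.24 for the phosphoglycerate kinase gene Pgk1 to 0.40 for the muscle enolase Eno3. Pkm, the pyruvate kinase gene, read 761 to 903 units with full overlap, at -0.04 in double mutants (adjusted p = 0.88). Pgam1, phosphoglycerate mutase, read 267 to 333 units, the double mutants overlapping wild type, and neuronal Eno2 read 16.1 to 18.5 units.

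Eno3 was the only gene called in OBF-1 mutants. It read 72.5 and 90.4 units in Aiolos mutants, 113 and 105 in OBF-1 mutants, 107 and 92.4 in double mutants, and 72.6 and 78.9 in wild type. Both OBF-1-deficient genotypes lay above wild type without overlap, at 0.53 ± 0.12 in OBF-1 mutants (log2, SE, adjusted p = 0.048) and 0.40 in double mutants (adjusted p = 0.068). The call was lost without any one OBF-1 or wild-type array (adjusted p 0.130 to 0.295) and after quantile normalization (adjusted p = 0.060).

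The lactate step held opposite changes of its paired genes. Ldha encodes the muscle subunit of lactate dehydrogenase, which favours lactate formation, and Ldhb the heart subunit, which favours lactate use. Ldha read 515 and 522 units in Aiolos mutants, 587 and 554 in OBF-1 mutants, 478 and 499 in double mutants, and 613 and 606 in wild type. Double mutants were lowest and wild type highest, with no overlap between any of the genotypes. The decrease of Ldha was -0.32 ± 0.09 in double mutants (adjusted p = 0.044), beside -0.24 in Aiolos mutants (adjusted p = 0.19) and -0.10 in OBF-1 mutants (adjusted p = 0.70). This call was close to the threshold and was lost without any one of the 8 arrays (adjusted p 0.054 to 0.192).

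Ldhb read 137 and 133 units in Aiolos mutants, 120.3 and 131 in OBF-1 mutants, 167 and 163 in double mutants, and 124 and 119 in wild type. Only the double mutants stood apart, above all 6 other arrays. Ldhb rose by 0.44 ± 0.09 against wild type (log2, SE, adjusted p = 0.0099) and by 0.39 against OBF-1 mutants (adjusted p = 0.042), with 0.29 against Aiolos mutants (adjusted p = 0.14). Without wild-type replicate 2 or double-mutant replicate 1 the adjusted p against wild type was 0.075 and 0.063, and the call against OBF-1 mutants was lost without any one of the 8 arrays (adjusted p 0.061 to 0.198).

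The other 3 Ldhb probe sets were dimmer and were also higher in double mutants. On an x-type probe set, the means were 63.7 units in Aiolos mutants, 67.2 in OBF-1 mutants, 101 in double mutants and 45.7 in wild type. There Ldhb passed in all 3 mutants against wild type, at 0.48 (adjusted p = 0.027), 0.56 (adjusted p = 0.0080) and 1.14 (adjusted p = 1.2e-05) in this order of genotypes. A smaller difference, 0.30, came from another probe set, which did not pass (adjusted p = 0.061). The dimmest probe set averaged 32.9 units in double mutants and 12 in wild type and passed as well (adjusted p = 2.2e-05), but its wild-type reading was near the bottom of the scale, so no size is drawn from it. The 4 probe sets shared the direction.

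Slc16a1 encodes the monocarboxylate transporter MCT1. It read 668 and 729 units in Aiolos mutants, 746 and 752 in OBF-1 mutants, 985 and 998 in double mutants, and 691 and 637 in wild type. The double-mutant arrays stood well above all others, whereas Aiolos mutants overlapped wild type. Slc16a1 was 1.5-fold higher in double mutants than in wild type (log2 0.58 ± 0.09, adjusted p = 0.0020), 1.42-fold higher than in Aiolos mutants (log2 0.51, adjusted p = 0.010) and 1.32-fold higher than in OBF-1 mutants (log2 0.40, adjusted p = 0.042). It was the only gene of the 37 that passed in all 3 of these comparisons. Without any one array the call against wild type remained, that against Aiolos mutants was lost without Aiolos replicate 1 or either double-mutant array (adjusted p 0.050 to 0.103), and that against OBF-1 mutants was lost without any one of the 8 (adjusted p 0.055 to 0.177).

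Slc16a3, the exporter MCT4, stayed at 45.7 to 60.8 units. Of the genes that govern pyruvate entry into mitochondria, the dehydrogenase subunit Pdha1 read 1366 and 1288 units in double mutants, above the 1264 and 1217 of wild type but not past the test (0.10, adjusted p = 0.68), and Pdk3 read 135 to 159. Pdk1, the kinase that shuts the dehydrogenase, read 122 and 131 units in Aiolos mutants, 139 and 130.2 in OBF-1 mutants, 137 and 127 in double mutants, and 111 and 104 in wild type. All mutant arrays exceeded both wild-type arrays, but none of the differences passed (0.23, 0.32 and 0.29, adjusted p 0.22, 0.13 and 0.086 in that order). For double mutants alone, 27.2% of all named genes exceeded wild type without overlap, and the share exceeding it in every mutant was not computed. Pdk4 read 8.65 to 12.7 units.

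Promoter sequences of 3 of these genes are printed because the genes moved in opposite directions in double mutants: Slc16a1 higher, Ldha and Aldoa lower. Each run is the 250 bases before an annotated start on the gene's strand (RefSeq, GRCm38.p6), at chr3:104638414-104638663 (plus strand) for Slc16a1, chr7:46845554-46845803 (plus strand) for Ldha and chr7:126799255-126799504 (minus strand) for Aldoa. Capitals mark ACGTG or its reverse complement CACGT, the core bound by hypoxia-inducible factors. Where they read CACGTG, the E-box of MYC-type factors, the palindrome holds the core on both strands.
Slc16a1: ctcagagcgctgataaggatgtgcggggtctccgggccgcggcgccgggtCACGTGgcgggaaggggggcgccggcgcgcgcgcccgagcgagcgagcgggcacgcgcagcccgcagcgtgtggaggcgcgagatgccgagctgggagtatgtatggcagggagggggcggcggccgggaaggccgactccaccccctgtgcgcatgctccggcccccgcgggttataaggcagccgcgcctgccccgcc
Ldha: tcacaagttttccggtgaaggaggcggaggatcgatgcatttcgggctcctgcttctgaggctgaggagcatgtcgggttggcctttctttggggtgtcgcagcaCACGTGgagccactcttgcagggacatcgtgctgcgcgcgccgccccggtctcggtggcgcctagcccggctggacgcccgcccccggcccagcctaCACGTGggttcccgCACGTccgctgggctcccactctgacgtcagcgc
Aldoa: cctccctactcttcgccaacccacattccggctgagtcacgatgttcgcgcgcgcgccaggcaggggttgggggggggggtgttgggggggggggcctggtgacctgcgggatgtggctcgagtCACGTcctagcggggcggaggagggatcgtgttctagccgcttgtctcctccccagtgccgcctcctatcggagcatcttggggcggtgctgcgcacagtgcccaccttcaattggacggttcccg
In these windows Slc16a1 carried 1 such site, an E-box, Ldha carried 3 with 2 E-boxes, and Aldoa carried 1 that was not an E-box. The windows shown for Ldha and Aldoa were chosen because they hold the core. A second start of Ldha, with the window chr7:46846832-46847081, and a further start of Aldoa, with the window chr7:126800448-126800697, held none. The core was found in 17 of 49 promoter windows of 36 members (34.7%) and in 16.6% of 32851 windows of all annotated genes. CACGTG stood in 5 of the 49 (10.2%) and in 6.02% of all windows. The octamer ATGCAAAT (reverse ATTTGCAT), to which OBF-1 is recruited by Oct factors, stood in 1 of the 49 (2.04%) and in 1.6% of all windows. That window lay before a start of Pfkfb3 (chr2:11553930-11554179), while the window of its other start (chr2:11502091-11502340) held none. The ACGTG core was present in windows of genes that rose, fell or did not pass, and a match is no evidence of binding.

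**Figure D2:**
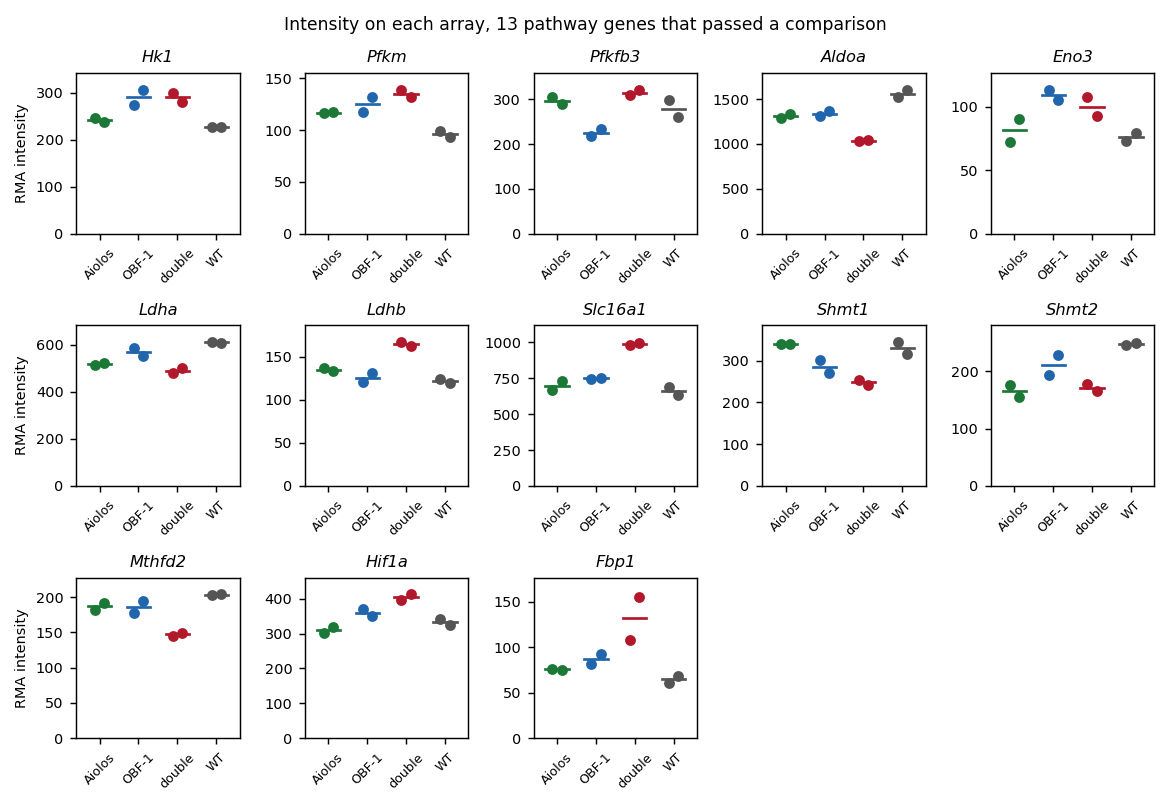
RMA intensity (y axis, linear, from 0) on each of the 8 arrays for the 13 genes that passed at least 1 comparison, with genotypes on the x axis (double: double mutant). Points are arrays and bars genotype means; Slc16a1, Ldhb and Fbp1 are highest and Aldoa, Ldha and Mthfd2 lowest in the double mutants.

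No measured pentose phosphate gene passed in any comparison. Pgd, the second oxidative enzyme, read 853 to 1167 units, Tkt, transketolase, 966 to 1204, Taldo1, transaldolase, 702 to 856, and Rpia, ribose-5-phosphate isomerase, 958 to 1174. Double mutants overlapped wild type for Pgd and Rpia. Both double-mutant arrays of Tkt lay above wild type, and all mutant arrays of Taldo1 were below its 834 and 856 units, in each case by less than the test required. Of all named genes 27.2% were higher and 22.3% lower without overlap in double mutants, and the share lower in every mutant was not computed. Aiolos mutants lay below wild type for Pgd and Rpia, again without passing (-0.18 for each, adjusted p 0.41 and 0.36). Changes in double mutants were -0.10, 0.08, -0.18 and -0.09 for Pgd, Tkt, Taldo1 and Rpia, with adjusted p from 0.31 to 0.75.

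In the serine and one-carbon branch 3 of 7 genes fell in double mutants and none rose, where 4.13% of all named genes fell and 4.9% rose. Shmt1 and Shmt2 are the cytosolic and the mitochondrial serine hydroxymethyltransferase, which pass a carbon from serine to folate. Shmt2 read 177 and 155 units in Aiolos mutants, 193 and 229 in OBF-1 mutants, 177 and 165 in double mutants, and 246 and 249.8 in wild type. Aiolos and double mutants overlapped each other and lay below all other arrays. The decrease was -0.58 ± 0.11 in Aiolos mutants (log2, SE, adjusted p = 0.024) and -0.53 in double mutants (adjusted p = 0.0097), with -0.24 in OBF-1 mutants (adjusted p = 0.37), and the double mutants stood at 0.05 against Aiolos mutants, with a 95% interval of -0.19 to 0.28.

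The Shmt2 call in Aiolos mutants was lost without any one Aiolos or wild-type array (adjusted p 0.087 to 0.145). In double mutants it was lost without either wild-type array or double-mutant replicate 2 (adjusted p 0.055 to 0.067). All 4 Shmt2 probe sets were lower in double mutants, 2 of them past the threshold (-0.53 and -0.63). The single probe set not of the x type gave -0.36 in Aiolos mutants (adjusted p = 0.13) and -0.26 in double mutants (adjusted p = 0.21).

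Shmt1 read 339 and 340.2 units in Aiolos mutants, 301 and 270.3 in OBF-1 mutants, 255 and 242 in double mutants, and 345 and 316 in wild type. Here Aiolos mutants overlapped wild type and double mutants were lowest without overlap. Shmt1 fell by 0.41 ± 0.10 on the log2 scale against wild type (adjusted p = 0.020) and by 0.45 against Aiolos mutants (adjusted p = 0.026), and the difference to OBF-1 mutants was -0.20 (adjusted p = 0.36). Either call was lost without any one array of the 2 genotypes it compared (adjusted p 0.050 to 0.140 against wild type, 0.069 to 0.157 against Aiolos mutants). The other 3 Shmt1 probe sets were dim, at means of 26.8 to 71.3 units, and gave -0.02, -0.02 and 0.02 in double mutants.

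Mthfd2, the mitochondrial enzyme that oxidises methylene-tetrahydrofolate, read 182 and 192 units in Aiolos mutants, 177 and 195 in OBF-1 mutants, 146 and 149 in double mutants, and 203 and 204 in wild type. Double mutants were lowest by a wide margin, and both single mutants lay just below wild type. The change was -0.47 ± 0.09 in double mutants (log2, SE, adjusted p = 0.0077), against -0.12 in Aiolos mutants (adjusted p = 0.50) and -0.13 in OBF-1 mutants (adjusted p = 0.61). Differences from the single mutants were -0.35 and -0.34 (adjusted p = 0.073 for Aiolos and 0.086 for OBF-1). Without wild-type replicate 2 or double-mutant replicate 1 the adjusted p of Mthfd2 against wild type was 0.053 and 0.052. The second probe set fell as well, by 0.66 on the log2 scale (adjusted p = 0.00085).

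The upstream enzymes of serine synthesis did not pass by their brightest probe sets. Phgdh, which draws 3-phosphoglycerate out of glycolysis, read 583 to 784 units with -0.03 in double mutants (adjusted p = 0.91), Psat1 read 136 to 156 in the mutants and 173 and 156 in wild type (-0.19, adjusted p = 0.31), and Psph read 40.6 to 78. One of the 3 other Phgdh probe sets was lower in Aiolos mutants (-0.58, adjusted p = 0.014) and in double mutants (-0.43, adjusted p = 0.016), where it was also lower than in OBF-1 mutants (-0.41, adjusted p = 0.046). All 4 Phgdh probe sets are of the x type. Mthfd1, the cytosolic trifunctional enzyme, was at 0.30 in Aiolos and 0.24 in double mutants (adjusted p 0.16 and 0.21). By their brightest probe sets the one-carbon genes thus did not all point the same way. The 3 Mthfd1 probe sets themselves differed in sign in double mutants (-0.06 to 0.30), and none passed.

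**Figure D3:**
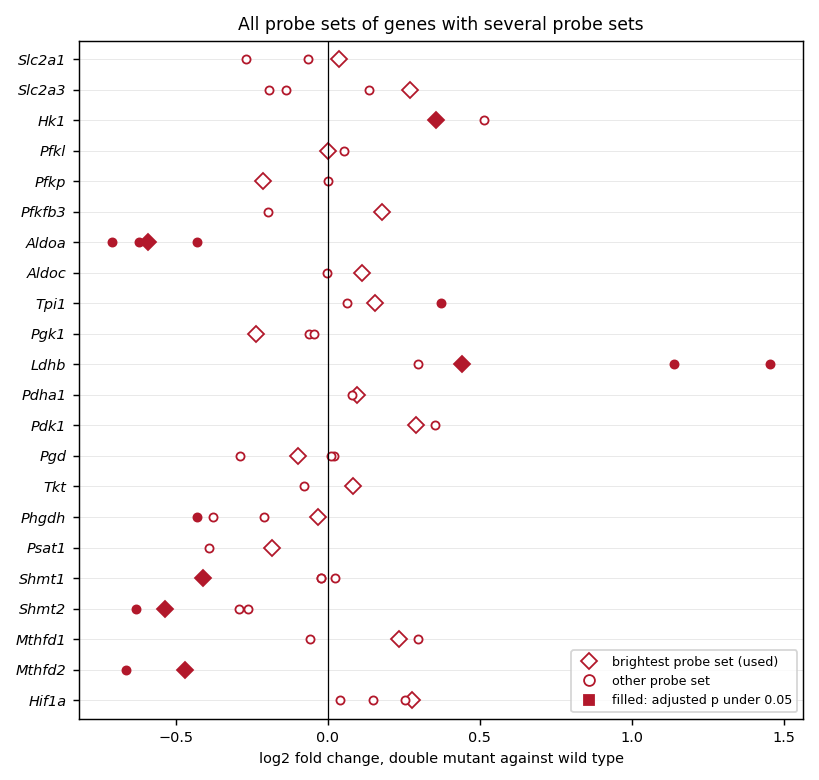
Log2 fold change of double mutants against wild type (x axis) for every probe set of the 22 members with several probe sets (64 in all). Diamonds are the brightest probe sets, used in the counts, and filled symbols passed; all 4 Aldoa and 3 of 4 Ldhb probe sets are filled, but only 1 of 4 for Shmt1.

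Over the 22 members with several probe sets, 5 of 64 probe sets were higher and 10 lower in double mutants (7.81% and 15.6%), against 4.29% and 4.28% of all 22626 probe sets. Probe sets of a gene share their transcript and are not independent. All probe sets of a gene had the same sign in 12 of the 22. The arrays of double mutants and wild type did not overlap for 17 members that were higher and 10 that were lower (45.9% and 27%), where 27.2% and 22.3% of all named genes did the same. Changes over 0.5 on the log2 scale were reached by 4 members (10.8%) and by 5.1% of all genes, with a median difference of 0.09 between arrays of one genotype. The shares of all genes here were not matched to the members' intensity.

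Hif1a, the oxygen-regulated transcription factor subunit that activates many glycolytic genes, was listed as the regulator. It read 302 and 319.6 units in Aiolos mutants, 369.7 and 351 in OBF-1 mutants, 396 and 413 in double mutants, and 343 and 325 in wild type. Double mutants were highest and Aiolos mutants lowest, without overlap. Hif1a was higher in double than in Aiolos mutants, by 0.38 ± 0.09 (log2, SE, adjusted p = 0.045), while the difference from wild type was 0.28 (adjusted p = 0.090). The call was lost without any one of the 8 arrays (adjusted p 0.060 to 0.241) and with the mean of the 4 Hif1a probe sets (0.05, adjusted p = 0.77). Transcript levels leave out its control through protein stability.

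Whether the double mutants differed from each single mutant was also tested directly. Against Aiolos mutants, within a fluidics station, Slc16a1, Fbp1 and Hif1a rose and Shmt1 fell, thus 3 of 37 higher (8.11%, background 1.92%) and 1 lower (2.7%, background 1.49%). Against OBF-1 mutants Slc16a1, Ldhb and Pfkfb3 rose and Aldoa fell, again 3 higher (8.11%, background 1.73%) and 1 lower (2.7%, background 1.17%). At an unadjusted p under 0.05, 8 members were higher and 4 lower against Aiolos mutants, 4 and 6 against OBF-1 mutants. The share of all named genes at that threshold was not computed, so these counts show no excess.

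The interaction asks whether the double mutant departs from the sum of both single-mutant changes on the log2 scale, and a station effect that is additive on this scale cancels in it. None of the 37 members passed in either direction (limma, background 0.129% higher and 0.0323% lower), and 2 were higher and 1 lower at an unadjusted p under 0.05. No background share was computed for the unadjusted threshold. Pfkfb3 had 0.39 (95% interval 0.09 to 0.70) and Slc16a1 0.33 (0.05 to 0.62), at adjusted p of 0.34 and 0.37. For Aldoa the interaction was -0.12 (-0.39 to 0.15) and for Fbp1 0.36 (-0.10 to 0.82). Intervals of this width leave room for departures as large as most single-mutant changes, so additivity was neither shown nor refuted.

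**Figure D4:**
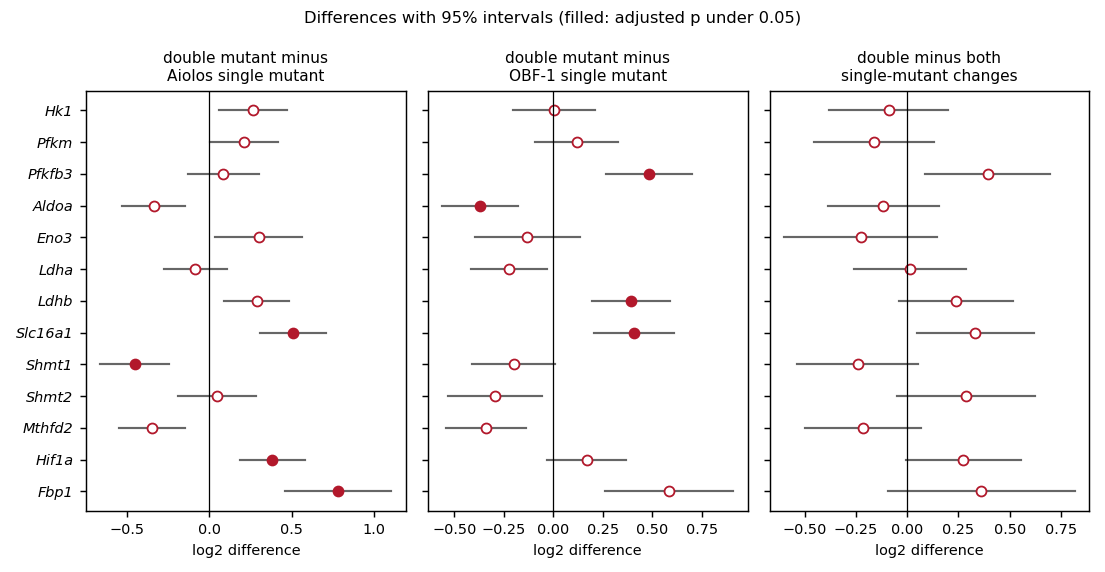
Log2 difference (x axis) with 95% intervals (lines) of double mutants against Aiolos mutants (left), against OBF-1 mutants (middle) and of the interaction (right) for the 13 genes. Filled points had an adjusted p under 0.05; only Slc16a1 is filled in both the left and the middle panel, and none is filled in the right panel.

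Further genes of the same routes were counted from fixed lists. The shares of all named genes to set beside these counts in double mutants are again 4.9% higher and 4.13% lower. Of 18 other glycolysis and gluconeogenesis genes, 2 rose and none fell in double mutants. Pck2, the mitochondrial enzyme that makes phosphoenolpyruvate from oxaloacetate, read 221 and 204 units in Aiolos mutants, 301 and 333 in OBF-1 mutants, 457 and 456 in double mutants, and 232 and 200.4 in wild type. Aiolos mutants overlapped wild type, OBF-1 mutants lay above both, and double mutants above all others. Pck2 was 2.12-fold higher in double mutants (log2 1.08, adjusted p = 4.1e-05) and 1.47-fold higher in OBF-1 mutants (log2 0.56, adjusted p = 0.015). The other was the sugar and urate transporter Slc2a9, which was dim (0.45, adjusted p = 0.017).

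Of 9 other pyruvate genes and 9 other serine and one-carbon genes none passed in double mutants. Of 6 other pentose phosphate genes only Prps2, which makes phosphoribosyl pyrophosphate for nucleotides, fell (-0.52, adjusted p = 0.0035), and it was also lower in OBF-1 mutants (-0.42, adjusted p = 0.034). Prps2 averaged 171 units in Aiolos, 145 in OBF-1 and 136 in double mutants, and 194 in wild type. Of 17 hypoxia-response genes 2 rose and 2 fell in double mutants, against the 4.9% and 4.13% of all named genes. Egln2, a prolyl hydroxylase that marks Hif1a for destruction, fell by 0.61 on the log2 scale (adjusted p = 0.0014), while its relative Egln1 rose by 0.38 (adjusted p = 0.029). Of 20 MYC and mTOR regulators only the MYC antagonist Mxi1 rose (0.38, adjusted p = 0.020).

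Markers of other cells moved with genotype. Of 15 granulocyte and monocyte markers 8 were higher and none lower in double mutants, where 4.9% of all named genes were higher, and the summed level was 28199 to 29041 units in Aiolos, 30139 to 34282 in OBF-1 and 30563 to 31099 in double mutants, against 24739 to 24885 in wild type. Ngp, a neutrophil granule gene, averaged 6029 units in double mutants and 4352 in wild type, so these transcripts were abundant in every genotype despite the B220+ CD25+ sort. Of 10 erythroid markers 4 were higher in double mutants, beside the same 4.9%, with sums of 1219.7 to 1518 units in Aiolos, 1674 to 2306 in OBF-1 and 1667 to 1985 in double mutants, against 1011 to 1079 in wild type. The globin gene Hba-a1 itself read only 18.2 to 27.5 units. Of 13 T, NK and plasma cell markers and of 10 stroma and megakaryocyte markers 1 each was higher in double mutants. Their part in the changes of the metabolic genes was not tested.

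The sums of 11 B-lineage markers were 30681 to 31989.8 units in Aiolos, 27945 to 28456 in OBF-1 and 25956 to 26015 in double mutants, against 32510 to 33255 in wild type. The list did not move one way, since 3 of the 11 were higher and 3 lower in double mutants. There the median was -0.10 and the range -1.72 to 0.70 on the log2 scale. In OBF-1 mutants 1 was higher and 2 were lower, with a median of -0.01 and a range of -2.36 to 0.61. A sum follows its brightest genes, so these sums do not show a fall across the list. Cd79a, a chain of the pre-B-cell receptor, averaged 7382 units in double mutants and 7936 in wild type, and Il2ra, which encodes the CD25 of the sort gate, 664 and 421 units. Of 23 cell cycle genes none passed in double mutants against wild type, and their sums were 9491 to 9661 units in Aiolos, 10532 to 11506 in OBF-1 and 9210 to 10008 in double mutants, against 10794 to 10800.3 in wild type. Against OBF-1 mutants 4 of the 23 were lower in double mutants (background 1.17%). The share of cycling pre-BII cells cannot be read from these arrays, and its part in the results was not tested.

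**Figure D5:**
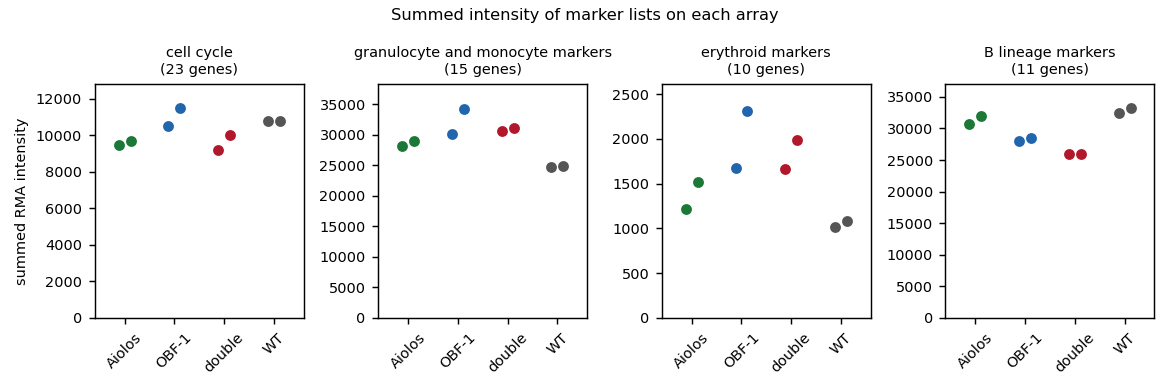
Summed RMA intensity (y axis, linear, from 0) of 4 marker lists on each array, with genotypes on the x axis (double: double mutant). Granulocyte and monocyte and erythroid sums are lower in wild type than in every mutant. B-lineage sums are lowest in double mutants, at 25956 to 26015 units, though 3 of these 11 genes were higher and 3 lower.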

How the data were processed

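RNA of sorted pre-BII cells was hybridised to Affymetrix MOE430A arrays, 2 per genotype. The deposited values are RMA intensities on a linear scale, per the labels. The RMA version is not given in the sources used here, while the methods describe Affymetrix Microarray suite 5 and GeneSpring 5. RMA adjusts all arrays together and compresses small differences of dim probe sets. Depth does not apply, and the number of arrays limits the precision.

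Values were taken to log2 and 22626 of 22690 probe sets (64 controls removed) were fitted with limma 3.58.1 in R 4.3.3, with 1 mean per genotype and moderated variances (residual df 4, prior df 7.69). Differences passed at an adjusted p (Benjamini-Hochberg) under 0.05 over all probe sets. Because the labels name only replicate arrays, p-values cover the spread between them. Genes were named through the platform table and RefSeq symbols. The platform table gave 20380 probe sets a single symbol, 691 several and 1555 none. Each gene was read from its brightest single-gene probe set. Fold changes and differences are mutant over wild type, or double over single mutant. The 6 contrasts set every mutant against wild type and the double against either single mutant, with the interaction as the last. Values on every array were given for genes that passed in any comparison, and at most 4 passing genes were named per other list. The members and lists were chosen with earlier results of these data known. Alternatives were quantile normalization, median centring, a minimum of 100 units, other variance models, a replicate block, only the genotypes compared, the mean of all probe sets, each array left out and, added after seeing the data, the brightest probe set not ending in s or x. The script was tested on simulated data for double mutants against wild type. There 37.8% of changes of 0.5 on the log2 scale and 90.2% of changes of 1 were recovered. A gene that did not pass may therefore still have changed by a modest amount. Promoters came from RefSeq (GRCm38.p6), where 36 of 37 members matched.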

Additional observations from a re-analysis of the deposited data

How the results depend on the processing

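No change reversed its direction under any alternative, among the 20 calls of single genes. The calls kept numbered 20 with trended robust variances and with the minimum of 100 units, 18 with median centring, 16 with the mean of all probe sets, 15 with quantile normalization, 14 with the replicate block, 14 with only the genotypes compared, 16 of 18 with probe sets not of type s or x, 2 with ordinary variances, and 7 to 13 with 1 array left out. The minimum of 100 units had to be reached in some genotype only, so Fbp1, Eno3 and Pfkm met it through mutants in which they were high. That setting could hardly remove a call of a higher gene. Aldoa, Slc16a1 and Fbp1 in double mutants against wild type kept their calls with each array left out. With ordinary variances Aldoa and Slc16a1 kept this call as well, but Fbp1 did not (adjusted p = 0.13).

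Members called in Aiolos mutants were 1 in all, 0 with ordinary variances, 0 with probe sets not of type s or x, 2 with the mean of all probe sets and 0 to 1 with 1 array left out. In OBF-1 mutants 1 became 0 with quantile normalization, median centring, ordinary variances or the replicate block, 2 with the minimum of 100 units or the mean of all probe sets, and 0 to 1 with 1 array left out. In double mutants against wild type 10 became 2 with ordinary variances and 3 to 9 with 1 array left out. Against Aiolos mutants 4 became 0 with ordinary variances and 0 to 3 with 1 array left out. Against OBF-1 mutants 4 became 2 with quantile normalization or the replicate block, 0 with ordinary variances, 1 with only the genotypes compared and 0 to 1 with 1 array left out.

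The members' median log2 change in Aiolos mutants was -0.0287 with median centring, -0.0478 with the mean of all probe sets and -0.0589 to 0.0363 with 1 array left out. In OBF-1 mutants it was -0.00495 with probe sets not of type s or x and -0.0117 to 0.0668 with 1 array left out, and in double mutants -0.0102 with the mean of all probe sets and 0.0283 to 0.0904 with 1 array left out. Against Aiolos mutants it spanned 0.0122 to 0.0915, against OBF-1 mutants -0.0691 to -0.00815 and in the interaction -0.0193 to 0.0855 with 1 array left out. The cause of these shifts was not tested.

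Equal replicate numbers did not pair the arrays: deviations of arrays with the same number correlated at -0.09 to 0.10 over the genotype pairs, and the replicate block costs a degree of freedom. With 2 arrays per genotype, a genotype left with 1 array is assumed to vary like the others. Dim probe sets carry the least information.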

Other observations

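Gapdh had no probe set of its own, but 3 control probe sets on the array target mouse Gapdh. The one at the 3' end read 1916 and 1955 units in Aiolos mutants, 2034 and 2242 in OBF-1 mutants, 1926 and 1893 in double mutants, and 2115 and 2011 in wild type. These control probe sets entered no test.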
